A study of Mus musculus with 6 samples.

Results

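*Nod1*, *Nod2*, *Ripk2*, *Tlr2*, *Tlr3*, *Tlr4*, *Tlr7*, *Tlr9*, *Cd14* and *Myd88* encode sensors of microbial and damage-derived molecules together with the proteins that pass their signal on. They were chosen by gene symbol, as a family with a shared role, and all 10 were found among the 54532 genes of the deposited read counts. Lung RNA from 3 GR+/+ and 3 GRdim/dim mice was measured as poly(A)-captured libraries, 1 per mouse. The comparison asks which sensing genes differ between lungs with an intact and lungs with a dimerization-impaired glucocorticoid receptor (GR) once both have gone through hemorrhagic shock (HS).

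GRdim/dim mice carry in every cell a GR whose DNA-binding domain is changed by a point mutation, and GR+/+ mice were their littermates on a mixed 129/SvEv and C57BL/6 background. The mice were 10 to 16 weeks old. Both genotypes were anaesthetised, ventilated and bled to a mean arterial pressure of 35 mmHg for 1 h, then received their blood back and were resuscitated for 4 h with fluids and norepinephrine in a mouse intensive care unit. All libraries compared here therefore come from shocked lungs, and each value is a difference between genotypes after HS, not a response to it. The sequenced mice were 2 females and 1 male of GR+/+ and 1 female and 2 males of GRdim/dim. Total counts were 16361747 to 32082940 per GR+/+ library and 15687734 to 24444604 per GRdim/dim library. Markers of the lung were present in every library, with *Sftpc*, a surfactant gene of alveolar type 2 cells, at 11400 ± 3050 CPM in the GR+/+ lungs and at 12800 ± 3560 CPM in the GRdim/dim lungs (SD, n = 3 each). For *Cdh5*, the endothelial cadherin gene, the means were 805 ± 242 and 703 ± 121 CPM. CPM are counts per 1000000 of a library's counts in the tested genes, after adjustment of that sum by a scaling factor (TMM). The mutated gene *Nr3c1* was read at 148 ± 12.2 CPM in GR+/+ and 143 ± 20.2 CPM in GRdim/dim lungs (SD, n = 3 each), which checks its level only, since counts per gene do not show the point mutation.

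Toll-like receptors (TLRs) recognise microbial molecules at the cell surface or inside endosomes, and the NOD proteins recognise fragments of bacterial cell wall in the cytosol. Most TLRs signal through the adaptor Myd88 and the NOD proteins through the kinase Ripk2, and both routes lead to NF-kappaB and to cytokine genes. In the lung, these sensors are found in macrophages, neutrophils and dendritic cells and also in epithelium and endothelium, and glucocorticoids acting through the GR are known to restrain much of the output of the pathway.

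None of the 10 sensing genes passed the threshold of an adjusted *p* under 0.05 with a log2 fold change beyond 0.5 in edgeR's quasi-likelihood test, against 0.169% of all 16568 genes tested. *Nod2*, *Tlr2* and *Myd88* were nevertheless the members in which every GRdim/dim library lay above every GR+/+ library. Such a separation upwards was seen in 7.77% of all genes tested and here in 3 of 10. A separation downwards was seen in 7.05% of all genes and in 0 of the 10. The same 3 genes had an unadjusted *p* under 0.05. Over all genes 9.6% did, 4.91% with higher and 4.68% with lower levels in GRdim/dim lungs. Log2 fold changes were above 0 in 7 of the 10 genes, against 50.9% of all genes, and their median was 0.21 against 0.01 over all genes. These counts describe the 10 genes and were not tested as a set.

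**Figure D1:**
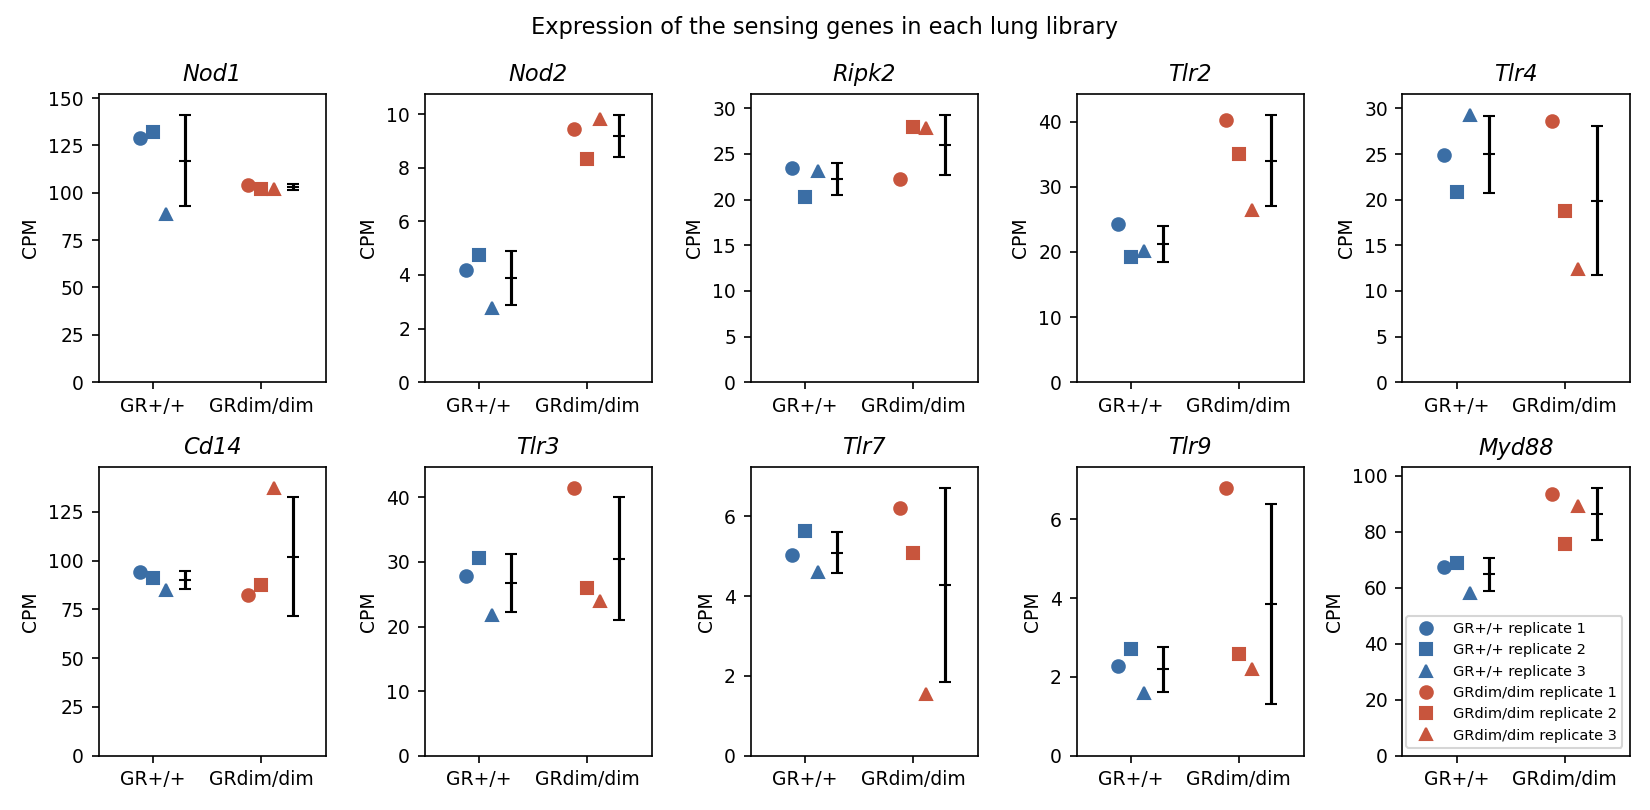
Level of each sensing gene in CPM (vertical axes from 0, linear, 1 scale per gene) in the 3 GR+/+ and 3 GRdim/dim lung libraries, with 1 symbol per replicate and black bars for the mean ± SD. For *Nod2* the GRdim/dim libraries lie at 8.31 to 9.82 CPM and the GR+/+ libraries at 2.76 to 4.74 CPM, while *Tlr9* and *Tlr3* stand out in GRdim/dim replicate 1 and *Cd14* in GRdim/dim replicate 3.

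Because the libraries of *Nod2*, *Tlr2* and *Myd88* separated by genotype, the sequence before the RefSeq start of each is shown (GRCm38.p6, 5′ to 3′ along the gene), taken from a window of 250 bases without the bases that GENCODE M21 places in an exon of the gene. The stretches are chr8:88647097-88647314 on the plus strand for *Nod2* (218 bases), chr3:83841768-83841858 on the minus strand for *Tlr2* (91 bases) and chr9:119340042-119340268 on the minus strand for *Myd88* (227 bases). The stretches of *Nod2* and *Tlr2* lie ahead of the annotated gene. That of *Myd88* lies inside it, since the GENCODE gene begins further upstream, at 119341411, and the stretch falls between exons. Capitals mark the only match in the full windows of these 3 genes to the patterns searched, which are given below.
Nod2: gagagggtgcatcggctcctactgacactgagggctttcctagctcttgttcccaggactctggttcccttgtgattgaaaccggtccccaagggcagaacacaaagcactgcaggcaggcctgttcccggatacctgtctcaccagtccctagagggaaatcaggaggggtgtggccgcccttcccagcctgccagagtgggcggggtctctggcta
Tlr2: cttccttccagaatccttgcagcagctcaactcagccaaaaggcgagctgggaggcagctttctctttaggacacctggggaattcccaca
Myd88: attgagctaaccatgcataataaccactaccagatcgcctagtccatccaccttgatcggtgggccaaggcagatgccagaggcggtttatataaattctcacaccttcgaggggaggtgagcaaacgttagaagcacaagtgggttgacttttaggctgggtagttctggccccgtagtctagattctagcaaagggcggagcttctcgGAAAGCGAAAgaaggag

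The capitals in the *Myd88* sequence are GAAAGCGAAA, a match on the opposite strand to the interferon response core (TTTC and TTTC with any 2 bases between), 40 bases before the RefSeq start and within the GENCODE gene. The promoter set held 32851 windows of 300 bases from 27025 genes (250 before and 50 after the start), and 6 of the 10 sensing genes were in it. Motifs were searched on both strands. The palindromic glucocorticoid response element (GNACA and TGTNC with any 3 bases between) was matched in 0.475% of all windows and in 0 of the 6 genes. The negative element (CTCC and GGAGA with 0, 1 or 2 bases between) was matched in 0.317%, 0.737% and 0.676% of windows and likewise in 0 of the 6. An NF-kappaB pattern (GGG and TTTCC with any 2 bases between) was matched in 1.63% of windows and among the sensing genes in *Tlr3*, as GGGAGTTTCC, 211 bases before the start. Sequences that differ from this pattern, such as GGGAATTCCC in the *Tlr2* stretch, were not counted. The interferon core was matched in 3.44% of windows and the PU.1 pattern GAGGAAGT in 3.2%, the latter in *Tlr9* just inside the transcribed sequence. A match describes these letters and is not a shown site of binding.

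*Nod2*, the cytosolic sensor of muramyl dipeptide (ENSMUSG00000055994, chromosome 8 of GRCm38 from 88647315 to 88688474, plus strand), had the largest log2 fold change of the 10 genes. It was read at 4.18, 4.74 and 2.76 CPM in GR+/+ replicates 1, 2 and 3 and at 9.44, 8.31 and 9.82 CPM in GRdim/dim replicates 1, 2 and 3. The groups did not overlap, and the GRdim/dim libraries lay close together. These levels rest on 70, 79 and 87 counts in GR+/+ and on 175, 200 and 152 counts in GRdim/dim libraries. The highest GR+/+ level, in replicate 2, rests on 79 counts, with an exact 95% Poisson interval of 62.5 to 98.5. The lowest GRdim/dim level, also in replicate 2, rests on 200 counts, with an interval of 173 to 230. These intervals cover counting error only, and they are of raw counts from libraries of unequal depth. Means were 3.89 ± 1.02 and 9.19 ± 0.784 CPM (SD, n = 3 each), a 2.37-fold difference. On the log2 scale the difference was 1.25 with a standard error of 0.29 and a 95% interval of 0.60 to 1.89. Its unadjusted *p* of 0.00147 stood at rank 135 among the genes tested, and the adjusted *p* from edgeR was 0.180. The exact permutation test of the mean CPM gave *p* = 0.1 (two-sided), the smallest that 3 against 3 allow. DESeq2, run on the same counts, gave an adjusted *p* of 0.00725 and so called *Nod2*, as it did 1.71% of the 15917 genes for which it gave an adjusted *p*, and edgeR without a filter on low counts gave 0.0203. Over all alternatives the adjusted *p* ranged from 0.00725 to 0.382, and the log2 fold change from 1.04 to 1.42. *Nod2* had been singled out by the study from these same libraries, so its place here is not independent evidence.

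*Nod1*, the sensor of diaminopimelic acid-containing cell wall fragments, did not share this pattern. Its levels were 129, 132 and 88.7 CPM in GR+/+ and 104, 102 and 102 CPM in GRdim/dim libraries. The GRdim/dim values lay within the range of GR+/+, whose replicate 3 was the lowest of all. The log2 fold change was -0.18 (95% interval -0.59 to 0.22, standard error 0.18, edgeR adjusted *p* = 0.826). *Ripk2*, the kinase that both NOD proteins recruit, was at 23.5, 20.3 and 23.1 CPM in GR+/+ and at 22.2, 27.9 and 27.8 CPM in GRdim/dim libraries. GRdim/dim replicates 2 and 3 lay above all GR+/+ libraries and replicate 1 among them. Its log2 fold change was 0.22 (95% interval -0.20 to 0.64, standard error 0.19, edgeR adjusted *p* = 0.792), and this interval overlapped that of *Nod2*. Differences between the 3 genes were not tested.

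*Tlr2* (ENSMUSG00000027995, chromosome 3 from 83836272 to 83841767, minus strand), the surface receptor for bacterial lipoproteins, was read at 24.3, 19.2 and 20.1 CPM in GR+/+ and at 40.3, 35.1 and 26.4 CPM in GRdim/dim libraries. The groups did not overlap, but GRdim/dim replicate 3 lay close to GR+/+ replicate 1. Means were 21.2 ± 2.74 and 34.0 ± 7.03 CPM (SD, n = 3 each), and the difference was 0.68 on the log2 scale (95% interval 0.21 to 1.15, standard error 0.21). Before adjustment *p* was 0.00900, and after it 0.341 in edgeR and 0.149 in DESeq2. By the exact permutation test *p* was 0.1.

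*Tlr4*, the lipopolysaccharide receptor, and its co-receptor *Cd14* did not separate the genotypes. *Tlr4* was at 24.9, 20.8 and 29.3 CPM in GR+/+ and at 28.6, 18.8 and 12.4 CPM in GRdim/dim libraries, with the lowest level of all in GRdim/dim replicate 3. Its log2 fold change was -0.33 (95% interval -0.97 to 0.32, standard error 0.29, edgeR adjusted *p* = 0.800). *Cd14*, on chromosome 18, was at 94.1, 91.2 and 84.9 CPM in GR+/+ and at 82.5, 87.3 and 137 CPM in GRdim/dim libraries. GRdim/dim replicate 3, the library lowest in *Tlr4*, was by far the highest in *Cd14*, while GRdim/dim replicate 1 lay below all GR+/+ libraries and replicate 2 among them. The log2 fold change of *Cd14* was 0.18 (95% interval -0.27 to 0.64, standard error 0.21, edgeR adjusted *p* = 0.852) and turned to -0.08 without GRdim/dim replicate 3.

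The nucleic acid receptors of the endosome varied widely among the GRdim/dim lungs. *Tlr9*, which binds DNA rich in unmethylated CpG, was at 2.27, 2.70 and 1.59 CPM in GR+/+ and at 6.79, 2.58 and 2.20 CPM in GRdim/dim libraries. GRdim/dim replicate 1 alone stood above the GR+/+ range, with 126 counts against 38 to 50 in GR+/+. The log2 fold change was 0.83 (95% interval -0.22 to 1.87, standard error 0.47, edgeR adjusted *p* = 0.633), and without that library it was 0.15. *Tlr3*, the receptor for double-stranded RNA, was at 27.8, 30.6 and 21.8 CPM in GR+/+ and at 41.4, 26.0 and 24.0 CPM in GRdim/dim libraries, again with GRdim/dim replicate 1 alone above the other group. Its log2 fold change of 0.19 (95% interval -0.35 to 0.74, standard error 0.25, edgeR adjusted *p* = 0.877) turned to -0.09 without that library.

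*Tlr7*, the receptor for single-stranded RNA, lies on chromosome X, and the sexes were unequally spread over the genotypes. Its levels were 5.02, 5.64 and 4.61 CPM in GR+/+ and 6.20, 5.07 and 1.55 CPM in GRdim/dim libraries. The low value in GRdim/dim replicate 3 rests on 24 counts, against 84 to 145 in the GR+/+ libraries. The log2 fold change was -0.24 (95% interval -1.21 to 0.73, standard error 0.44, edgeR adjusted *p* = 0.927) and turned to 0.15 without GRdim/dim replicate 3. The interval of *Tlr7* includes differences in either direction as large as the one seen in *Tlr2*.

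*Myd88* (ENSMUSG00000032508, chromosome 9 from 119335934 to 119341411, minus strand), the adaptor used by most TLRs and by the interleukin-1 receptor, was at 67.4, 68.9 and 58.1 CPM in GR+/+ and at 93.6, 75.8 and 89.2 CPM in GRdim/dim libraries. All GRdim/dim libraries lay above all GR+/+ libraries. Means were 64.8 ± 5.85 and 86.2 ± 9.30 CPM (SD, n = 3 each). The log2 fold change was 0.41 (standard error 0.16, 95% interval 0.05 to 0.77), and *p* from edgeR was 0.0286 before and 0.456 after adjustment. By the exact permutation test *p* was 0.1. Of the *Myd88* transcript sequence, 8.93% of windows of 31 bases also occur in the neighbouring gene *Acaa1a*, which overlaps it by 290 exon bases on the opposite strand and had 2842 to 4891 counts per library. Whether strand was used in counting is not given in the sources used here, so reads from the overlap cannot be assigned with certainty.

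**Figure D2:**
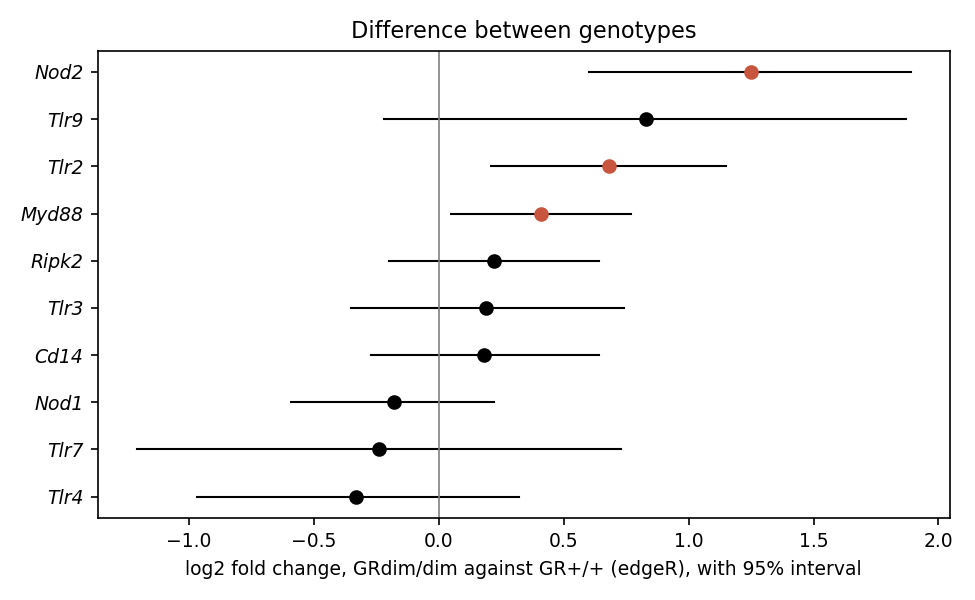
Log2 fold change of GRdim/dim against GR+/+ lungs for the 10 sensing genes (horizontal axis, edgeR, 3 libraries per group), with 95% intervals as lines. Red points mark genes whose libraries do not overlap between the groups. The intervals of *Nod2*, *Tlr2* and *Myd88* lie above 0, and those of the other 7 genes include 0.

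The sexes were unequally spread over the genotypes, and sex is not labelled mouse by mouse. By the levels of *Xist* and Y-linked genes, 2 GR+/+ and 1 GRdim/dim libraries were female-typed and the rest male-typed, the numbers stated for the groups. The log2 ratio of mean CPM within *Xist*-positive and within Y-positive libraries was 1.15 and 1.20 for *Nod2*, 0.84 and 0.46 for *Tlr2*, and 0.26 and 0.44 for *Myd88*. Of the 10 genes, 8 had the same sign in both, 5 of them higher and 3 lower in GRdim/dim lungs. The exceptions were *Tlr3* and *Cd14*, each at -0.01 in *Xist*-positive libraries. With 1 or 2 libraries per genotype and sex, these ratios carry no test. In edgeR with a covariate for sex-linked expression, log2 fold changes were 1.17 for *Nod2*, 0.64 for *Tlr2* and 0.34 for *Myd88*. Their unadjusted *p* values from that fit were 0.00444, 0.0222 and 0.0976, so *Myd88* was no longer under 0.05.

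Levels were compared between genes per kilobase of exon. In GR+/+ lungs the order was *Cd14* (52.0 CPM per kilobase), *Myd88* (25.2), *Nod1* (22.9), *Ripk2* (7.93), *Tlr2* (7.04), *Tlr3* (5.13), *Tlr4* (4.49), *Tlr7* (1.25), *Nod2* (0.777) and *Tlr9* (0.628). The ranges of neighbours overlapped for *Myd88* and *Nod1*, *Ripk2* and *Tlr2*, *Tlr3* and *Tlr4*, and *Nod2* and *Tlr9*. The order in GRdim/dim lungs was *Cd14* (59.1), *Myd88* (33.5), *Nod1* (20.2), *Tlr2* (11.3), *Ripk2* (9.23), *Tlr3* (5.86), *Tlr4* (3.59), *Nod2* (1.83), *Tlr9* (1.11) and *Tlr7* (1.05). There the ranges overlapped for *Tlr2* and *Ripk2*, *Ripk2* and *Tlr3*, *Tlr3* and *Tlr4*, *Nod2* and *Tlr9*, and *Tlr9* and *Tlr7*. In both genotypes the lipopolysaccharide co-receptor gene *Cd14* thus stood far above *Tlr4* in level per kilobase, and *Nod1* above *Nod2*.

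**Figure D3:**
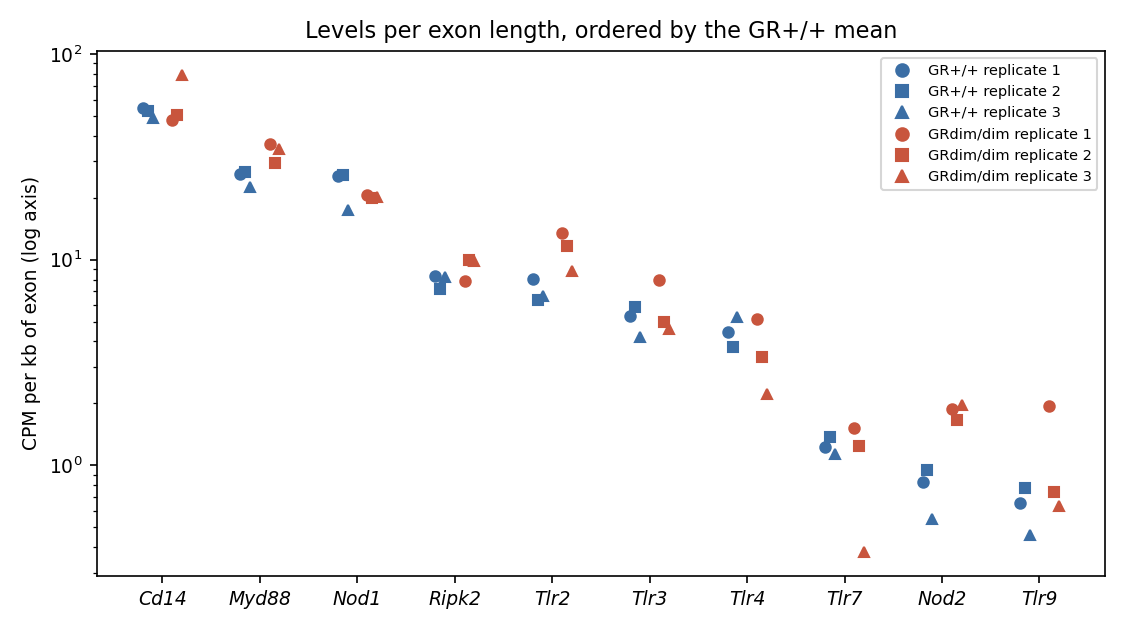
Level of the 10 sensing genes in CPM per kilobase of exon (logarithmic axis) in each of the 6 libraries, by genotype. *Cd14* is highest in both genotypes (means 52.0 in GR+/+ and 59.1 in GRdim/dim), and *Tlr7*, *Nod2* and *Tlr9* are lowest.

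Around these genes, 85 further genes of the TLR and NOD pathways were listed by role, and 81 had enough counts to be tested. Of these, 0 passed the threshold in edgeR, against 0.169% of all genes, and 1, *Irf7*, did in DESeq2, against 1.71%. An unadjusted *p* under 0.05 was found for 7 with higher and 0 with lower levels in GRdim/dim lungs, against 4.91% and 4.68% of all genes and 9.6% in either direction, and the median log2 fold change was 0.11. Among the other TLRs, 1 of 7 had an unadjusted *p* under 0.05. It was *Tlr1*, a partner of *Tlr2* on lipoproteins, at 4.18, 6.54 and 2.99 CPM in GR+/+ and 14.0, 6.11 and 6.33 CPM in GRdim/dim libraries (log2 fold change 0.95, SE 0.41, edgeR adjusted *p* = 0.492). The groups overlapped, GRdim/dim replicate 1 was the highest, and without it the log2 fold change was 0.46. *Tlr13*, a sensor of bacterial ribosomal RNA, likewise had its highest level, 34.6 CPM, in that library, against 7.62 to 14.0 CPM in GR+/+ (log2 fold change 0.91, SE 0.45, edgeR adjusted *p* = 0.569). Without that library the log2 fold change of *Tlr13* was 0.16. *Tlr8* was at 3.51 ± 1.92 and 3.83 ± 1.05 CPM and *Tlr11* at 2.20 ± 1.30 and 1.55 ± 0.249 CPM (SD, n = 3 each), with log2 fold changes of 0.14 and -0.48. Like *Tlr7*, *Tlr8* and *Tlr13* lie on chromosome X.

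Of the 9 co-receptors and chaperones, 0 had an unadjusted *p* under 0.05. *Unc93b1*, which escorts the nucleic acid receptors to endosomes, was at 72.8 ± 17.2 and 100 ± 17.1 CPM (SD, n = 3 each), with a difference of 0.47 ± 0.21 on the log2 scale (SE, edgeR adjusted *p* = 0.529). *Ly96*, the partner of *Tlr4* in binding lipopolysaccharide, was at 3.64 ± 2.03 and 4.39 ± 0.660 CPM, *Ly86* at 6.57 ± 1.57 and 8.25 ± 0.0737 CPM, and the chaperone gene *Cnpy3* at 54.3 ± 3.89 and 47.7 ± 13.1 CPM. The 17 adaptors, kinases and ligases had a median log2 fold change of 0, and 0 of them had an unadjusted *p* under 0.05. *Ube2n*, a ubiquitin-conjugating enzyme, *Tab2*, a subunit of the kinase complex that relays both pathways, and *Ticam2*, a bridging adaptor of *Tlr4*, had log2 fold changes of 0.24, 0.27 and -0.50.

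Among the 4 transcription factors, *Irf7*, a driver of type I interferon genes, had an unadjusted *p* under 0.05. Its levels were 17.6, 19.8 and 16.2 CPM in GR+/+ and 69.3, 24.4 and 34.1 CPM in GRdim/dim libraries. The groups did not overlap, and GRdim/dim replicate 1 was the highest. On the log2 scale the difference was 1.25 with a standard error of 0.34, and 0.72 without GRdim/dim replicate 1. Adjusted *p* was 0.253 in edgeR and 0.0195 in DESeq2. *Irf5* and *Irf8* had log2 fold changes of 0.40 and 0.32 (standard errors 0.21 and 0.22). *Irf7* was on the list of differing genes that the study drew from these same libraries, so its place here is not independent evidence.

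Inhibitors of the pathway had a median log2 fold change of -0.02, with 0 of 9 at an unadjusted *p* under 0.05. *Tnfaip3*, a deubiquitinase that ends NF-kappaB signalling, was at 53.7, 45.4 and 52.7 CPM in GR+/+ and at 43.0, 45.4 and 43.6 CPM in GRdim/dim libraries. No GRdim/dim library lay above the lowest of GR+/+, but the difference of -0.20 ± 0.16 (SE, log2 scale) had an edgeR adjusted *p* of 0.764. *Irak3*, a kinase-dead brake on TLR signalling, *Tollip* and *Dok3* had log2 fold changes of 0.11, -0.15 and 0.56 (standard errors 0.29, 0.15 and 0.27).

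Of 11 tested NOD pathway partners, 1 had an unadjusted *p* under 0.05. This was *Birc2*, a ubiquitin ligase that acts on Ripk2, at 61.6, 70.6 and 63.3 CPM in GR+/+ and 81.4, 92.3 and 75.6 CPM in GRdim/dim libraries, without overlap (log2 fold change 0.35, SE 0.16, edgeR adjusted *p* = 0.520). The adaptor gene *Card9* and the lysosomal peptide transporter gene *Slc15a3* had log2 fold changes of 0.50 and 0.42 (standard errors 0.28 and 0.27). Among 9 tested NOD-like receptors other than *Nod1* and *Nod2*, *Nlrc5*, a transactivator of MHC class I genes, was at 10.2, 20.7 and 12.9 CPM in GR+/+ and 59.7, 24.6 and 16.8 CPM in GRdim/dim libraries, again highest in GRdim/dim replicate 1 (log2 fold change 1.21, SE 0.45, edgeR adjusted *p* = 0.437, and 0.52 for the log2 fold change without that library). *Naip5* and *Naip6*, close paralogs that sense flagellin and whose reads counting may split, had log2 fold changes of 0.35 and 0.30 (standard errors 0.34 and 0.30).

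Genes that TLR and NOD signalling is known to switch on had a median log2 fold change of 0.54 over 15 tested, the highest of the 8 pathway lists. Unadjusted *p* under 0.05 was found for 3, all higher in GRdim/dim lungs, against 4.91% of all genes tested with higher levels. These 3 were among 4 genes of the list that lay higher without overlap between the groups, against 7.77% of all genes. A separation downwards was seen in 0, against 7.05% of all genes. *Il1b*, the interleukin-1β gene, was at 48.2, 32.9 and 30.2 CPM in GR+/+ and 73.2, 69.1 and 52.6 CPM in GRdim/dim libraries (log2 fold change 0.81, SE 0.22, edgeR adjusted *p* = 0.262). *Nos2*, inducible nitric oxide synthase, was at 4.48, 3.66 and 1.49 CPM in GR+/+ and 8.30, 10.3 and 4.52 CPM in GRdim/dim libraries (log2 fold change 1.29, SE 0.44, edgeR adjusted *p* = 0.392). The chemokine gene *Ccl4* was at 0.900 ± 0.312 and 1.84 ± 0.492 CPM (SD, n = 3 each), with a difference of 1.05 ± 0.44 on the log2 scale (SE, edgeR adjusted *p* = 0.483). Of the 15 log2 fold changes, 10 were above 0, against 50.9% of all genes tested, and the lowest was -0.52.

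**Figure D4:**
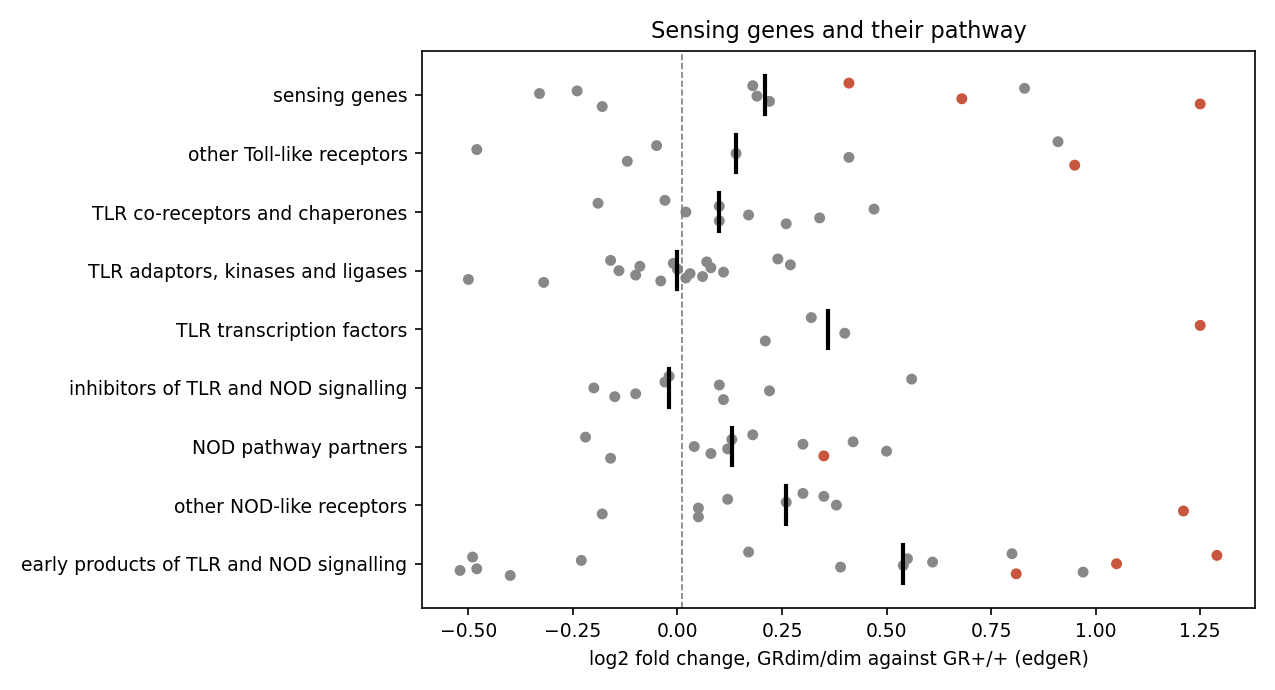
Log2 fold change (GRdim/dim against GR+/+, edgeR) of each tested gene of the sensing genes and the 8 pathway lists, 1 point per gene (red for an unadjusted *p* under 0.05), with a black bar at the median of each list and a dashed line at the median of all genes tested, 0.01. The list medians run from -0.02 for inhibitors to 0.54 for early products.

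Markers of immune cells moved between libraries as well. In whole lung, fewer cells of a type and less RNA per cell cannot be told apart. The summed level of the neutrophil markers was 255 to 510 CPM in GR+/+ and 356 to 1150 CPM in GRdim/dim libraries, with 1150 CPM in GRdim/dim replicate 1. All 7 tested markers of the 8 listed had log2 fold changes above 0 (median 0.85), against 50.9% of all genes tested. *S100a9*, the most abundant, was at 107 ± 26.0 and 207 ± 126 CPM (SD, n = 3 each). GRdim/dim replicate 1 was also the library highest in *Tlr2*, *Tlr3*, *Tlr7*, *Tlr9* and *Myd88*. B cell markers summed to 27.7 to 64.6 CPM in GR+/+ and 62.9 to 106 CPM in GRdim/dim libraries, with 8 of 8 log2 fold changes above 0 (median 1.05). T cell markers summed to 17.8 to 31.8 and 30.5 to 45.6 CPM, with 6 of 7 above 0 and *Cd3e* leading at 3.28 ± 1.74 and 7.91 ± 2.43 CPM. Monocyte markers summed to 174 to 298 and 224 to 331 CPM, with 6 of 6 above 0 and *Csf1r* leading at 122 ± 29.4 and 138 ± 18.5 CPM. Alveolar macrophage markers summed to 370 to 413 CPM in GR+/+ and 215 to 325 CPM in GRdim/dim libraries, but *Chil3*, the most abundant, made up most of the GR+/+ sum, at 253 ± 10.3 and 138 ± 36.5 CPM. Without *Chil3* the sums were 120 to 150 CPM and 119 to 163 CPM and overlapped. Of the 8 markers 2 had log2 fold changes above 0 (median -0.02), 1 lay lower without overlap and 1 higher without overlap. Over all genes tested these separations were seen in 7.05% and 7.77%. Plasmacytoid dendritic cell markers summed to 16.4 to 32.2 and 19.2 to 31.8 CPM, with 5 of 6 above 0 and *Cox6a2* leading at 13.3 ± 3.92 and 11.8 ± 6.16 CPM. *Cox6a2* was the marker below 0 (log2 fold change -0.18). Without it the sums were 6.63 to 14.7 CPM in GR+/+ and 12.5 to 20.6 CPM in GRdim/dim libraries, and still overlapped. No listed immune marker was at 0 in every library. Neutrophils, macrophages, B cells and dendritic cells are all known to express some of the 10 genes, and the part of these markers in the results was not tested.

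**Figure D5:**
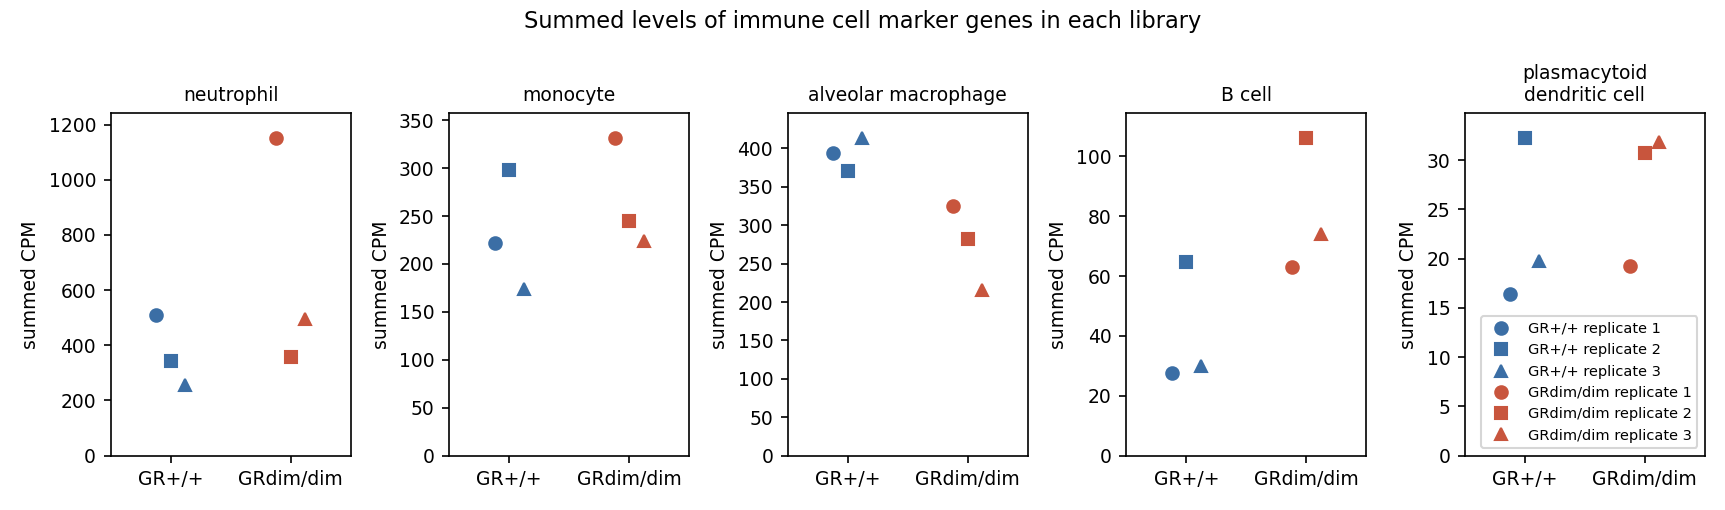
Summed CPM of the marker genes of 5 immune cell types (vertical axes from 0, linear) in the 3 GR+/+ and 3 GRdim/dim lung libraries, 1 symbol per replicate. Neutrophil markers reach 1150 CPM in GRdim/dim replicate 1, and the lower alveolar macrophage sums of GRdim/dim (215 to 325 CPM) than of GR+/+ libraries (370 to 413 CPM) rest on *Chil3*, without which the groups overlap.

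Genes whose pattern over the 6 libraries was most like that of *Nod2*, *Tlr2* and *Myd88* were sought by the root-mean-square difference of log2 CPM, each gene centred on its own mean. For *Nod2* they were *Il21r*, the interleukin-21 receptor gene (difference 0.0827, log2 fold change 1.20), and *Ptx3*, a secreted pentraxin gene (0.192 and 1.51). *Usp54* (0.0948 and 0.54) and *Arrdc3* (0.109 and 0.50) were nearest to *Tlr2*. For *Myd88* they were *Inafm2* (0.0462 and 0.40) and *Lrrc8a* (0.0552 and 0.46). These are likenesses over 6 libraries that share their depth and composition, and carry no test.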

How the data were processed

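RNA of 6 mouse lungs (3 GR+/+, 3 GRdim/dim) was isolated with Trizol, captured by poly(A) and sequenced by a service company. Whole-number read counts for each gene, not normalized, were deposited by the authors. The submitters' processing notes name mm10 and DESeq2. The aligner, the counting tool and the use of strand are not given in the sources used here. Of 54532 genes, 54409 matched GENCODE M21 (GRCm38), 53462 of them with the same coordinates and strand. Groups and replicate numbers come from the sample labels. Nothing states that replicate numbers pair mice.

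The 10 genes, the pathway lists and the marker lists were chosen with earlier results of these data known. Counts were tested over the whole table with edgeR 4.0.16 under R 4.3.3 (filterByExpr, TMM scaling, robust glmQLFit, glmQLFTest), with genotype as the only term and Benjamini-Hochberg adjustment over 16568 genes. CPM are scaled by TMM factors. A prior count of 2 was used for log2 CPM. Exact permutation tests (two-sided, in R) used the 20 assignments of 6 libraries into 3 and 3. Poisson intervals were computed with scipy 1.17.1 under Python 3.11.15. DESeq2 1.42.0 and the other alternatives were RLE scaling, no filter, at least 10 counts in every library, a covariate for sex-linked expression, a replicate block, and each library left out in turn. Within-sex ratios and marker sums without the most abundant marker were chosen after seeing the data. The edgeR step was tested on simulated data. Levels per length used GENCODE exon lengths.

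Named genes were all 10 sensing genes, the called or otherwise the 3 genes with the smallest *p* of each pathway list, *Tnfaip3*, *Irak3*, *Tlr8*, *Ly96*, *Irf7* and *Nr3c1*, the 2 genes most like each sensing gene with an unadjusted *p* under 0.05, and the most abundant marker of each cell type. A gene that this rule names is not reported here. Libraries of 1 genotype differed by more than sampling noise (chi-square of 20.7 to 73.5 per degree of freedom), so they were not copies of each other. This is no check for outliers, and all 6 were used. Single-gene counts of 24 to 200 in the lowest genes (*Nod2*, *Tlr7*, *Tlr9*) gave counting errors of 7.07% to 20.4%.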

Additional observations from a re-analysis of the deposited data

How the results depend on the processing

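Called sensing genes numbered 0 in the edgeR test and stayed at 0 with RLE scaling, with at least 10 counts in every library, with the replicate block, with the covariate for sex-linked expression and without any 1 library. The number was 1 without a filter on low counts and 1 with DESeq2, *Nod2* in both. Sensing genes with an unadjusted *p* under 0.05 numbered 3 in the edgeR test, 2 with the sex covariate and 2 to 4 without 1 library. Called pathway genes numbered 0 and rose in number to 4 without the filter (*Irf7*, *Nlrc5*, *Il1b* and *Nos2*) and to 1 with DESeq2 (*Irf7*), and were 0 without any 1 library. Over all genes the 28 calls became 522 without the filter, 272 with DESeq2, 34 with the replicate block, 20 with the sex covariate and 4 to 22 without 1 library, with 4 without GR+/+ replicate 2. The cause of these shifts was not tested. Nothing states that the replicate numbers pair mice. The deviations of same-numbered libraries correlated at 0.22, 0.04 and -0.05, so the numbers were not taken as a pairing. The block gave *Nod2* a log2 fold change of 1.27 and an adjusted *p* of 0.196.

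Of 120 recomputed log2 fold changes of the 10 genes, 3 took the opposite sign, and each came from leaving out a library (*Tlr3* -0.09, *Tlr7* 0.15, *Cd14* -0.08). Without 1 library, the ranges were -0.35 to -0.08 for *Nod1*, 1.04 to 1.42 for *Nod2*, 0.16 to 0.33 for *Ripk2*, 0.55 to 0.83 for *Tlr2*, -0.09 to 0.34 for *Tlr3*, -0.67 to -0.08 for *Tlr4*, -0.59 to 0.15 for *Tlr7*, 0.15 to 1.10 for *Tlr9*, -0.08 to 0.33 for *Cd14* and 0.34 to 0.50 for *Myd88*. Signs also changed within these ranges for *Irak3* (-0.13 to 0.32), *Ly96* (-0.01 to 0.82), *Tlr8* (-0.19 to 0.64), *Tlr11* (-0.81 to 0.10) and *Nr3c1* (-0.13 to 0.06). *Tlr3* and *Cd14* were at -0.01 within *Xist*-positive libraries. Low counts limit *Tlr7*, *Tlr9* and *Nod2*, and 3 mice per genotype limit the permutation tests to *p* = 0.1.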

Other observations

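Ratios between related sensing genes within a library, on the scale of CPM per kilobase of exon, were chosen after the values had been seen and carry no test. The ratio of *Nod2* to *Nod1* was 0.0328, 0.0365 and 0.0315 in GR+/+ replicates 1, 2 and 3 and 0.0917, 0.0830 and 0.0975 in GRdim/dim replicates 1, 2 and 3. Both groups were narrow, with means of 0.0336 ± 0.00259 and 0.0907 ± 0.00730 (SD, n = 3 each). The ratio of *Tlr2* to *Tlr4* was 1.81, 1.70 and 1.27 in GR+/+ and 2.60, 3.46 and 3.93 in GRdim/dim libraries, also without overlap. That of *Cd14* to *Tlr4* was 12.1, 14.1 and 9.30 in GR+/+ and 9.24, 14.9 and 35.6 in GRdim/dim libraries, so that GRdim/dim replicate 3 alone stood apart. *Tlr9* to *Tlr7* was 0.531, 0.562 and 0.404 in GR+/+ and 1.28, 0.598 and 1.66 in GRdim/dim libraries.

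GRdim/dim replicate 1 held the highest level of 5 of the 10 sensing genes and of 29.6% of the 81 pathway genes tested, against 18.8% of all genes tested.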
